A study of Mus musculus with 4 samples.

Results

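The genes described here are 49 members of the BMP, TGF-beta and activin pathway, measured on 4 two-colour arrays of the mouse organ of Corti, the sensory strip of the cochlea. They were taken by name from a fixed list of ligands, receptors, Smads, extracellular regulators and Id targets, with no threshold on a measured value. The list was chosen with earlier results of these data known. The arrays carry probes for 30011 named genes in all, and all 49 members had at least 1 probe. In 47 of the 49 the probe was well above background, and these were tested for the effect of genotype.

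Each array set a pool of Sox2-Tbx2LOF tissue against a pool of control tissue of the same sex, both from NMRI embryos at E18.5. The mutant pools are labelled Sox2(creERT2);Tbx2(fl/fl) and the control pools Tbx2(fl/n.d.), and the controls carried no Cre. All embryos were exposed to tamoxifen through the dam, which received 4 mg by mouth at E16.5, together with progesterone. In the cross that the methods give, the dams were homozygous for Tbx2fl and for the R26mTmG reporter, so that both groups inherited these alleles from them. The Cre allele was present in 1 group alone, so loss of Tbx2 and the presence of the Sox2CreERT2 allele cannot be told apart. Recombination was limited to cells that expressed Sox2, and each pool joined organs of several embryos from the basal part of the duct, from which the spiral ligament and ganglion had been removed. Arrays 1 and 2 held female pools and arrays 3 and 4 male pools, and the mutant RNA was labelled with Cy3 on arrays 1 and 3 and with Cy5 on arrays 2 and 4.

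BMPs, TGF-betas and activins are secreted dimers that bind pairs of type I and type II receptor kinases. The receptors phosphorylate Smad proteins, which enter the nucleus with Smad4 and change transcription. BMP signals raise the Id genes, whose products block bHLH factors, while Smad6 and Smad7 act as feedback inhibitors. In the cochlea, BMP signalling is known for its part in the patterning of the duct across its width, and the bHLH factor Atoh1, which Id proteins can oppose, drives hair cell formation.

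The deletion itself was read by a single Tbx2 probe, whose position relative to the floxed part is not given in the sources used here, so it may not check the labels. Its log2 ratio of mutant over control was -0.06, -0.24, -0.02 and -0.30 on arrays 1 to 4 (mean -0.15, limma adjusted p = 0.313). Median signals were between 315 and 381 intensity units in the green channel and between 355 and 412 in the red, and all 4 arrays lay on 1 slide and shared 1 scan. All 6 hair cell markers and all 6 supporting cell markers examined were above background. Log2 ratios of all tested probes correlated at 0.43 to 0.46 between arrays of the same dye orientation and at -0.28 to -0.09 between arrays of opposite orientation, and the fit therefore carries a term for dye.

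Few members of the pathway differed between the genotypes. Of the 47 tested members, 2 passed an adjusted p of 0.05, with Gdf6 higher and Id4 lower in the mutant. Over all 21233 genes tested, 0.499% passed as higher and 0.612% as lower, against 1 of 47 members in each direction, so that each share rests on a single gene. No member passed with a change of 1.5-fold or more, which 0.273% of all genes did. The median log2 ratio of the members was 0.001, with 24 above and 23 below 0, beside 0.002 over all genes. The median size of the change, regardless of direction, was 0.031 for the members and 0.034 for all genes. In this bulk tissue a lower signal from fewer cells of a type and a lower signal from less RNA per cell cannot be told apart.

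The fit put a bound on the change in signal of each member in the pooled tissue. In the main fit the 95% confidence intervals of the log2 ratios reached 0.11 to 0.20 to either side of the mean. All 47 of these intervals lay within 1.5-fold in either direction. The background correction added an offset of 50, which draws the ratios of dim probes toward 0. Bmp10 had a mean log2 brightness of 6.68, beside 6.27 and 6.32 for the untested Grem1 and Bambi. For such dim members the interval bounds the array signal and not the RNA. In 41 members the interval included 0, in 2 it lay above 0, and in 4 below 0. At an unadjusted p of 0.05 the members above 0 were Gdf6 and Tgfbr1, against a share of 3.82% over all genes, and the members below 0 were Id4, Bmp7, Fstl1 and Tgfb2, against 3.90%.

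**Figure D1:**
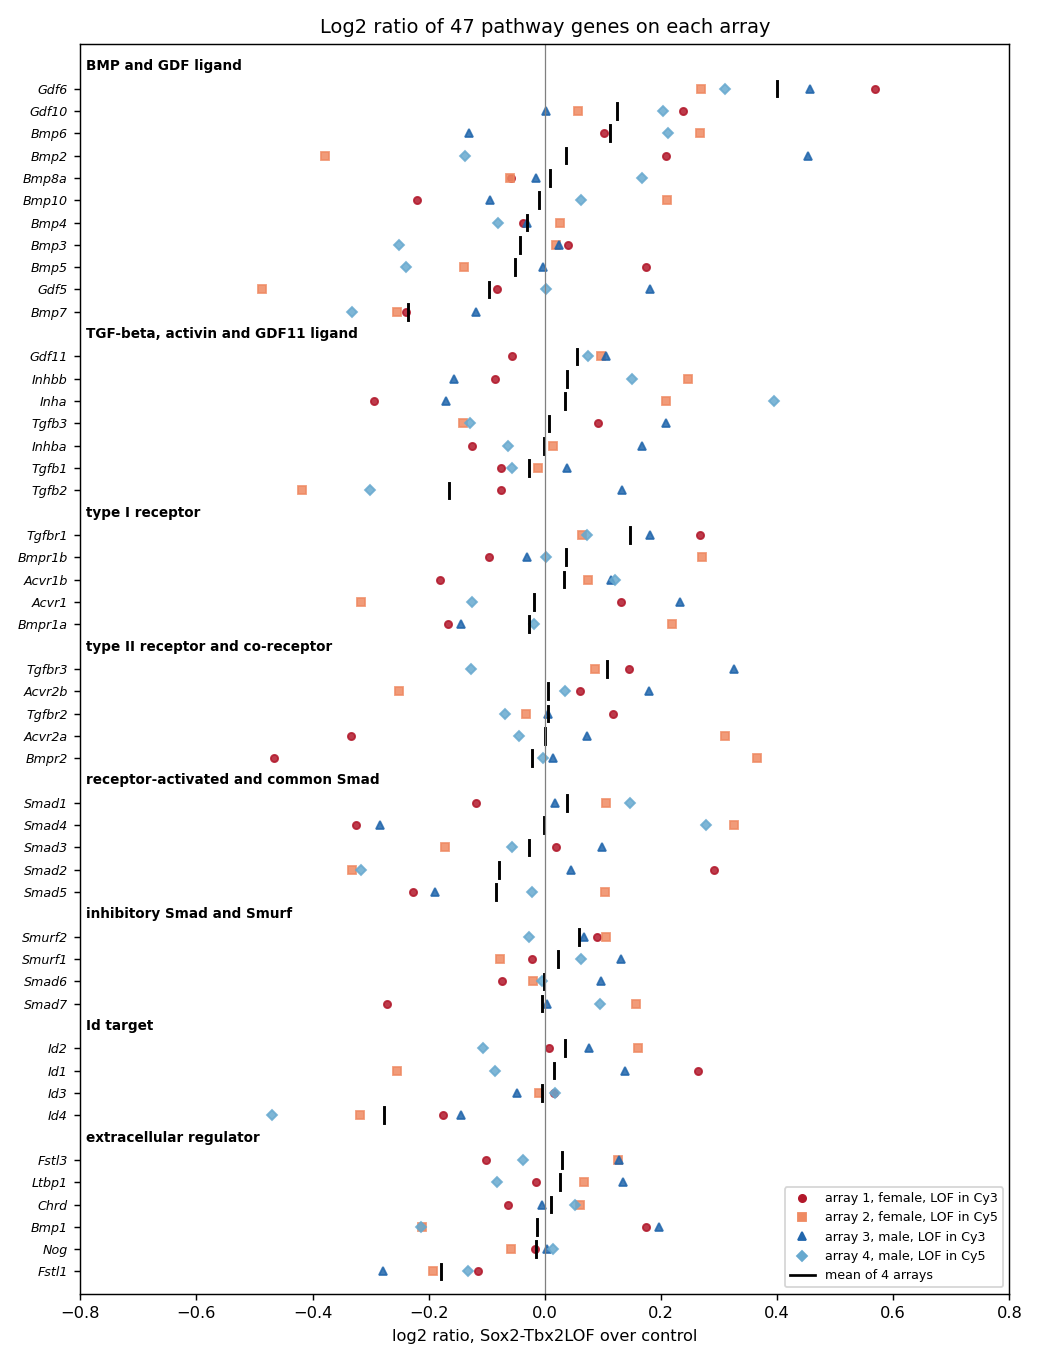
Log2 ratio of Sox2-Tbx2LOF over control (horizontal axis) for the 47 tested members, grouped by role; each symbol is 1 array and the black bar is the mean of 4 arrays. Gdf6 lies to the right and Id4, Bmp7 and Fstl1 to the left of 0 on all 4 arrays, while the symbols of most other members lie on both sides.

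**Figure D2:**
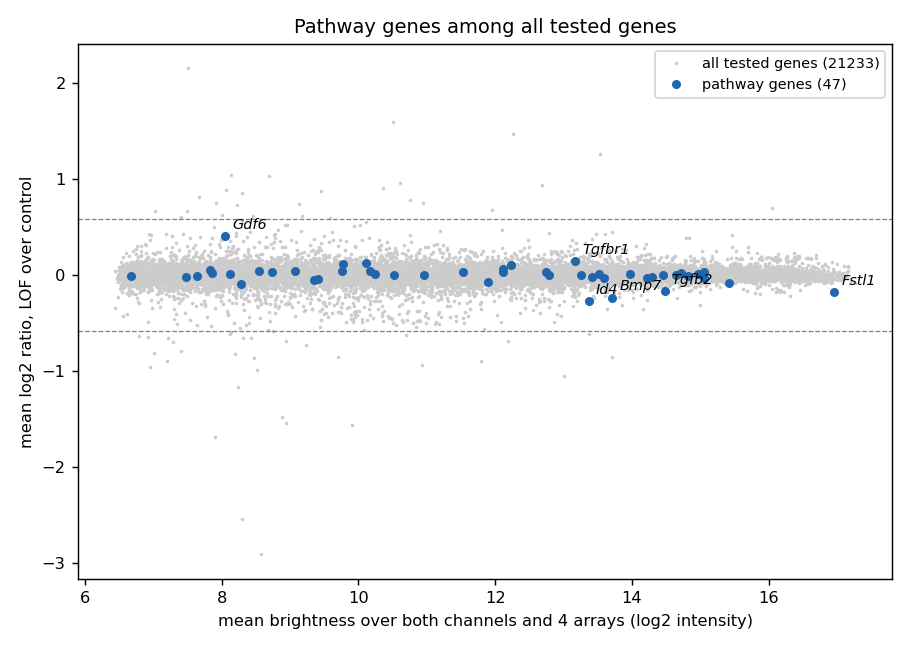
Mean log2 ratio (vertical axis) against mean brightness in log2 intensity (horizontal axis) for the 21233 tested genes in grey and the 47 members in blue; dashed lines mark a change of 1.5-fold. All members lie between the dashed lines.

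Of the 11 BMP and GDF ligands, Gdf6 rose and none of the other 10 passed. Gdf6, a BMP-type ligand best known for its role in joint, skeletal and eye development, had log2 levels of 8.30, 8.22, 8.36 and 8.14 in the 4 mutant pools and of 7.73, 7.95, 7.91 and 7.83 in the 4 control pools. Every mutant pool lay above every control pool. The log2 ratio was 0.57, 0.27, 0.46 and 0.31 on arrays 1 to 4, with a mean of 0.40 ± 0.14 (SD, n = 4), which is 1.32-fold (95% interval 0.29 to 0.51, limma adjusted p = 0.0061). Both arrays with the mutant in Cy3 gave the larger ratios. The mean log2 brightness of Gdf6 was 8.05, and its log2 ratio ran from 0.37 to 0.52 over the 16 alternatives of the closing section. The call was lost in the values of the series' own summary table (adjusted p = 0.310) and in a fit without the dye term (adjusted p = 0.0645), and held when any 1 array was left out.

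Non-overlapping pools were also seen for Bmp7, a BMP ligand made by many epithelia. Its levels were 13.59, 13.57, 13.68 and 13.53 in the mutant pools and 13.83, 13.83, 13.80 and 13.86 in the control pools, with the mutant lower on every array. The log2 ratio was -0.24, -0.25, -0.12 and -0.33, with a mean of -0.24 ± 0.09 (SD, n = 4, 95% interval -0.35 to -0.12), and the limma adjusted p of 0.0858 missed the threshold.

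Each probe is a 60-base oligonucleotide, and the first 30 bases are shown for the probes on which the results for Gdf6, Bmp7 and Id4 rest and for the 3 tested probes of Tgfbr1, which read the same gene at different places. Positions are those of the array annotation (mm9) for the 30 bases shown.
Gdf6, chr4:9789396-9789425, plus strand: ctaaagttactggaggtcgattgatataca
Bmp7, chr2:172695233-172695262, minus strand: gctggcgtctgtgttgaagggaaaccaagc
Id4, chr13:48358668-48358697, plus strand: tgctaagtagaagagcaatcgtgaatccaa
Tgfbr1, first probe, chr4:47427736-47427765, plus strand: tttcatcctaacactacagtagaaaatgga
Tgfbr1, next probe, chr4:47424946-47424975, plus strand: ctttttatctcatatgtgcagatcttgcaa
Tgfbr1, last probe, chr4:47395833-47395862, plus strand: tggatttccaggatgaatatgggtctctga
The Gdf6 probe begins at base 3435 of its transcript, the Bmp7 probe at base 1920 and the Id4 probe at base 922, and each of these genes is read by this 1 probe alone.

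The other BMP and GDF ligands lay between -0.10 and 0.12 in mean log2 ratio. Gdf10, a divergent BMP-family ligand, gave 0.24, 0.06, 0.001 and 0.20 (mean 0.12, 95% interval -0.01 to 0.25, adjusted p = 0.756). Bmp6 gave 0.10, 0.27, -0.13 and 0.21 (mean 0.11, 95% interval -0.01 to 0.24, adjusted p = 0.811). Bmp4, the ligand that marks the outer, lateral side of the duct, was close to 0 on every array, at -0.04, 0.03, -0.03 and -0.08 (mean -0.03, 95% interval -0.14 to 0.08, adjusted p = 0.9998). None of these 3 ligands passed the test, although Gdf10 was higher on all 4 arrays, and Bmp2, Bmp3, Bmp5, Bmp8a, Bmp10 and Gdf5 did not pass either.

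None of the 7 TGF-beta, activin and GDF11 ligands passed, and their mean log2 ratios ran from -0.17 to 0.05. The lowest was Tgfb2, a TGF-beta isoform, with levels of 14.57, 14.28, 14.51 and 14.21 in the mutant pools and 14.65, 14.70, 14.38 and 14.51 in the control pools. The pools overlapped, and the ratios of -0.08, -0.42, 0.13 and -0.30 differed in sign (mean -0.17, 95% interval -0.29 to -0.04, adjusted p = 0.386). A further Tgfb2 probe gave a mean of -0.08 (95% interval -0.30 to 0.14). Tgfb1, Tgfb3, Gdf11 and the inhibin and activin subunit genes Inha, Inhba and Inhbb lay between -0.03 and 0.05.

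Receptors among the members likewise gave no call. Of the 5 type I receptors, Tgfbr1, the kinase that carries TGF-beta signals, stood highest, with levels of 13.40, 13.28, 13.20 and 13.10 in the mutant pools and 13.13, 13.22, 13.02 and 13.03 in the control pools. The mutant pool was the brighter on each array, but the groups overlapped, because both female controls lay above 1 or both male mutants. Its ratios were 0.27, 0.06, 0.18 and 0.07 (mean 0.15, 95% interval 0.04 to 0.25, adjusted p = 0.366). The next probe on the list above gave a mean of 0.16 (adjusted p = 0.386) and the last, which reads another transcript, a mean of 0.14 (adjusted p = 0.693), so the probes gave nearly the same difference while none of them passed. Bmpr1a, Bmpr1b and Acvr1, which carry BMP signals, and the activin receptor Acvr1b lay between -0.03 and 0.04.

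Among the 5 type II receptors and co-receptors the mean log2 ratios ran from -0.02 to 0.11. The highest was Tgfbr3, the betaglycan co-receptor, at 0.14, 0.09, 0.32 and -0.13 (mean 0.11, 95% interval -0.02 to 0.24, adjusted p = 0.903). Bmpr2, the type II receptor for BMPs, had the widest spread between arrays of this class, from -0.47 to 0.36, around a mean of -0.02. Acvr2a, Acvr2b and Tgfbr2 had means of at most 0.01 in size.

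**Figure D3:**
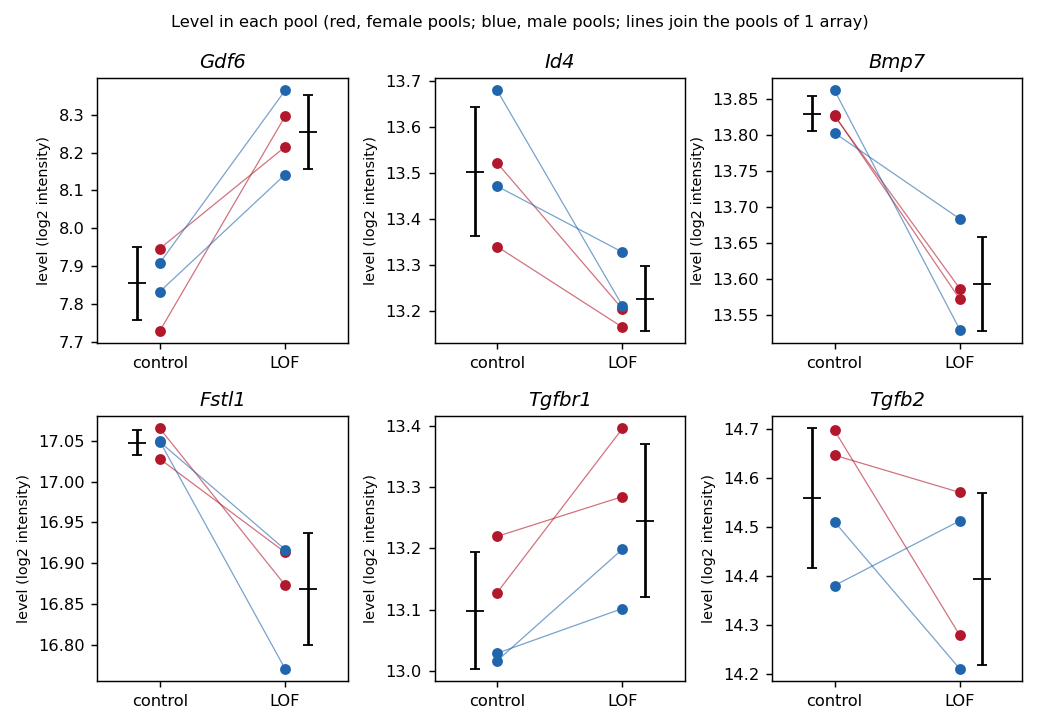
Level in log2 intensity (vertical axis, not starting at 0, with a range of its own for each gene) of the 6 members with an unadjusted p under 0.05 in the control and mutant pools; red points are female and blue points male pools, thin lines join the pools of 1 array, and black bars give the mean and SD of 4 pools. Control and mutant pools do not overlap for Gdf6, Id4, Bmp7 and Fstl1, and overlap for Tgfbr1 and Tgfb2.

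Nor did any of the Smads, which carry the signal inside the cell, pass the test. Of the 5 receptor-activated and common Smads, the lowest was Smad5, a BMP-type Smad, at -0.23, 0.10, -0.19 and -0.02 (mean -0.08, 95% interval -0.19 to 0.03, adjusted p = 0.978). Smad2, a TGF-beta-type Smad, gave 0.29, -0.33, 0.04 and -0.32 (mean -0.08, 95% interval -0.20 to 0.05, adjusted p = 0.9998). Smad1, Smad3 and Smad4 lay between -0.03 and 0.04.

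Feedback inhibitors, whose RNA follows pathway activity in many tissues, were also close to 0. Smad6, which inhibits BMP signals, gave -0.07, -0.02, 0.10 and -0.01 (mean -0.001, 95% interval -0.12 to 0.11). Smad7, which inhibits both branches, gave -0.27, 0.16, 0.004 and 0.09 (mean -0.004, 95% interval -0.14 to 0.13). Neither passed, with an adjusted p of 0.9998 for each. In the pooled tissue the intervals exclude a change of more than 0.14 log2 units in either direction. A larger change confined to a few cells of the pool could lie within these bounds and was not tested. Of the ubiquitin ligases that target Smads and receptors, Smurf2 gave 0.09, 0.11, 0.07 and -0.03 (mean 0.06, 95% interval -0.05 to 0.17) and Smurf1 had a mean of 0.02. Bambi, a pseudoreceptor that is itself induced by the pathway, was not well above background on any array in either group and was not tested.

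Of the 4 Id genes, Id4 fell and the other 3 were close to 0. The level of Id4 was 13.16, 13.20, 13.33 and 13.21 in the mutant pools and 13.34, 13.52, 13.47 and 13.68 in the control pools. All mutant pools lay below all control pools, by a narrow margin. The log2 ratio was -0.18, -0.32, -0.14 and -0.47, with a mean of -0.28 ± 0.15 (SD, n = 4), a level 1.21-fold lower (95% interval -0.39 to -0.16, limma adjusted p = 0.0469). This adjusted p lies just inside the threshold and rose above it when array 1, 3 or 4 was left out (0.175, 0.144 and 0.106) and in 8 of the 12 other alternatives, while the ratio stayed between -0.31 and -0.24.

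Id1, Id2 and Id3 did not follow Id4. Id1 gave 0.26, -0.25, 0.14 and -0.09 (mean 0.02, 95% interval -0.10 to 0.14). Id2 gave 0.01, 0.16, 0.08 and -0.11 (mean 0.03, 95% interval -0.10 to 0.16). Id3 gave 0.02, -0.01, -0.05 and 0.02 (mean -0.01, 95% interval -0.11 to 0.10), the narrowest spread of the 4. The adjusted p of each of the 3 was 0.9998, and none of their intervals overlaps that of Id4.

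The 250 bases upstream of the start of Id4 are shown beside those of Id2 and Id3, the Id genes with an entry in the RefSeq promoter table (GRCm38.p6), because 1 of the 3 changed. Capitals mark GGCGCC, the GC-rich Smad element, which reads the same on both strands.
Id4, chr13:48260866-48261115, plus strand: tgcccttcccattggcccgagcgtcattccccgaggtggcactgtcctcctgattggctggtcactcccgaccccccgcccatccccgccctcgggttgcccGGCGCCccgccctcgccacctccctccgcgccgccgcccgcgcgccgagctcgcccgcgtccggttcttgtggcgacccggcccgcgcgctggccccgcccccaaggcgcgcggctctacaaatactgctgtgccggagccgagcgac
Id2, chr12:25096093-25096342, minus strand: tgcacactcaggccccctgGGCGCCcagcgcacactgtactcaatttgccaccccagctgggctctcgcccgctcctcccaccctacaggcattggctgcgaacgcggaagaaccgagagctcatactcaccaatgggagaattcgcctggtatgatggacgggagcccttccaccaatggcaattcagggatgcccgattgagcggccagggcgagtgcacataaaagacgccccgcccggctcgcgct
Id3, chr4:136143572-136143821, plus strand: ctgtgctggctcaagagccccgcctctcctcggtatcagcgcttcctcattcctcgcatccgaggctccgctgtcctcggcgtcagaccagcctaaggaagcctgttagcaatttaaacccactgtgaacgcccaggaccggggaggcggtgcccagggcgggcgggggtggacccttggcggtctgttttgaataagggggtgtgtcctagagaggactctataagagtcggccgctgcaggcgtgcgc

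GGCGCC occurs once in the Id4 window, once in the Id2 window and not in the Id3 window. It is in 9.54% of the 27025 upstream windows of this length and in 8 of the 35 members with an entry, which are Bmpr1a, Bmpr2, Chrd, Grem1, Id2, Id4, Smurf2 and Tgfbr1. The T-box motif TCACACC, searched on both strands, is in 3.31% of all windows and in 0 of the 35 members, and the palindrome GTCTAGAC is in 0.174% and in 0 members. Neither TCACACC nor GTCTAGAC occurs in the printed windows. GC content was 75.6% in the Id4 window, 62.8% in each of the other windows, and 52% as the median of all windows.

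Outside the cell, 6 of the 7 extracellular regulators were tested and none passed. Fstl1, a secreted follistatin-like glycoprotein that binds BMP and TGF-beta family proteins, had levels of 16.91, 16.87, 16.77 and 16.92 in the mutant pools and 17.03, 17.07, 17.05 and 17.05 in the control pools. The groups did not overlap, and the control pools were tightly grouped. The ratios were -0.11, -0.19, -0.28 and -0.13, with a mean of -0.18 ± 0.07 (SD, n = 4, 95% interval -0.30 to -0.06, adjusted p = 0.246). The BMP antagonists Nog and Chrd, the activin antagonist Fstl3, the latent TGF-beta binding protein Ltbp1 and the protease Bmp1, which cleaves Chrd, lay between -0.01 and 0.03. Grem1, another BMP antagonist, was not well above background in either group.

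In all, the pool levels did not overlap between genotypes for 4 of the 47 members (Gdf6, Id4, Bmp7 and Fstl1), against 2.73% of all genes. At 4 of 47, the count rests on few genes, and 2 of the 4 did not pass the adjusted threshold. For the 16 members with more than 1 tested probe, the 20 further probes differed from the brightest by a median of 0.02 and by at most 0.10 in log2 ratio, and none of the 20 passed.

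The dye moved several members more than the genotype did. Smad4, the common Smad, gave -0.32, 0.33, -0.28 and 0.28 on arrays 1 to 4, following the dye of the mutant pool, with a mean of -0.001 and a dye term of 0.30 (Cy5 over Cy3, adjusted p = 0.0173). Bmp2 had a dye term of -0.29 (adjusted p = 0.0440), Inha of 0.27 (adjusted p = 0.0392) and Smad2 of -0.25 (adjusted p = 0.0493). These 4 of 47 members, each read by its brightest probe, stand beside 3.69% of all tested probes. The share by gene was not computed. Since each dye labelled the mutant on 2 arrays, this difference cancels in the mean, but it enlarges the SD over arrays, which is why the intervals come from the fit with the dye term.

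**Figure D4:**
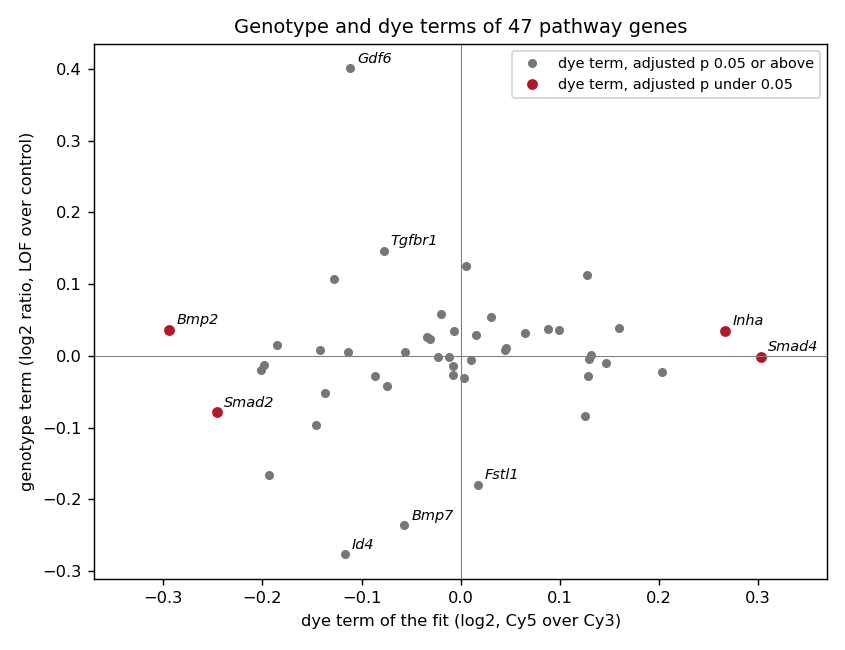
Genotype term (vertical axis, log2 ratio of mutant over control) against dye term (horizontal axis, log2 of Cy5 over Cy3) for the 47 members; red points have a dye term with an adjusted p under 0.05. Gdf6, Id4, Bmp7 and Fstl1 have dye terms between -0.12 and 0.02, and Smad4 and Bmp2, with the largest dye terms, have genotype terms near 0.

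The response did not differ detectably between female and male pools. With 2 arrays per sex, 0 of 47 members had an adjusted p under 0.05 for the difference between the male and the female log2 ratio, as was true of 0% of all genes, and 1 of 47 passed at an unadjusted p, against 1.93%. This was Gdf5, a ligand known from joint formation, with -0.08 and -0.49 on the female arrays and 0.18 and 0.003 on the male arrays (male minus female 0.38, adjusted p = 0.9998). Bmp2 followed with a difference of 0.24, from a mean of -0.08 in females to 0.16 in males, and Acvr2b, an activin type II receptor, with 0.20, from -0.10 to 0.11, both with the same adjusted p. Gdf6 gave 0.42 in females and 0.38 in males, and Id4 gave -0.25 and -0.31.

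Levels by sex, irrespective of genotype, were also compared over the 4 female and 4 male pools. Each array held pools of a single sex, so a difference in level by sex cannot be told apart from a difference between arrays. No member passed after adjustment, against 0.0754% of all genes, and 2 of 47 passed at an unadjusted p, against 8.02%. Tgfbr1 was lower in males by 0.17 log2 units (13.26 in females, 13.09 in males, adjusted p = 0.596) by its brightest probe, while its further tested probes were higher in males by 0.10 (adjusted p = 0.740) and 0.06 (adjusted p = 0.824), so that the probes of this gene differ in sign. Bmp6 was higher in males by 0.19 (9.68 and 9.87, adjusted p = 0.627). Tgfbr2 came next, higher in males by 0.11 (adjusted p = 0.635).

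**Figure D5:**
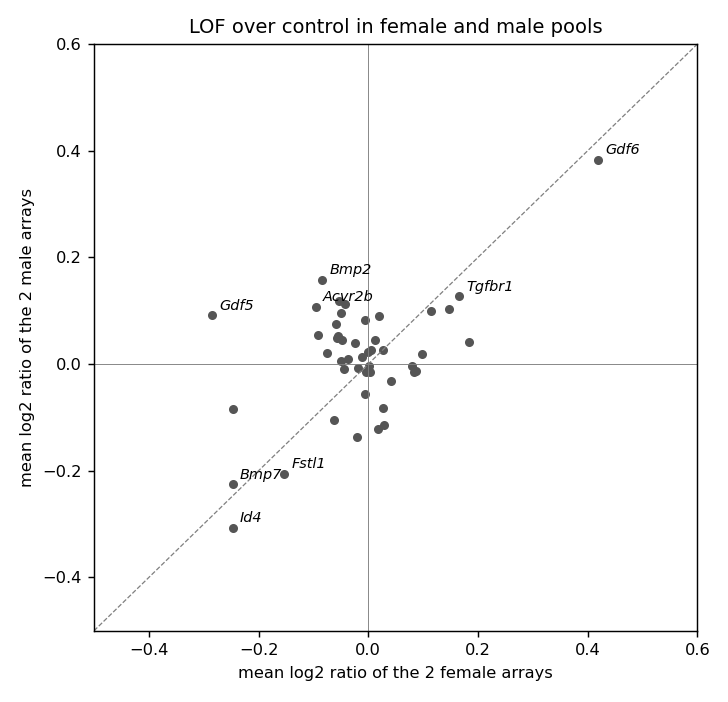
Mean log2 ratio of the 2 male arrays (vertical axis) against that of the 2 female arrays (horizontal axis) for the 47 members; the dashed line marks equal ratios. Gdf6, Id4, Bmp7, Fstl1 and Tgfbr1 lie near the line, and Gdf5 lies farthest from it.

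Among 50 other genes of the wider pathway, 44 were tested and 2 passed an adjusted p of 0.05, both higher in the mutant, while none of them passed as lower, against 0.499% and 0.612% of all genes. The count was 0 without a dye term, 1 with unpaired levels, 1 without array 1 or array 3, and 4 without array 4. Ctgf (now named Ccn2), a matricellular protein and well-known TGF-beta target, had levels of 15.08, 14.95, 15.13 and 14.95 in the mutant pools and 14.53, 14.75, 14.62 and 14.67 in the control pools. The groups did not overlap, and the mean log2 ratio was 0.38 ± 0.17 (SD, n = 4, 95% interval 0.28 to 0.49, adjusted p = 0.0066). Gdf9, a ligand known from the oocyte, gave 0.09, 0.47, 0.09 and 0.59 (mean 0.31 ± 0.26, SD, n = 4, adjusted p = 0.0240) with overlapping pools, and its ratios were larger on both arrays with the mutant in Cy5. Acvr1c, a receptor on this list, narrowly missed the threshold, with 0.42, 0.40, 0.22 and 0.20 (mean 0.31, limma adjusted p = 0.0516). Its pools did not overlap between genotypes. The Acvr1c probe was dim, with a mean log2 brightness of 6.90, beside 6.68 for Bmp10, so its ratio describes the array signal and not the RNA. At an unadjusted p, 5 of the 44 were higher and 1 was lower, against 3.82% and 3.90% of all genes. Their median log2 ratio was 0.01.

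Markers of the cell types that the dissected tissue could hold were read beside these results. Of 7 mesenchyme markers, 3 were higher at an unadjusted p, against 3.82% of all genes, and none after adjustment, with Col1a1 at 0.34 (adjusted p = 0.0614), and their summed log2 level was 18.01 to 18.12 in the mutant pools and 17.83 to 18.08 in the controls. None of the 6 neuron, 5 glia, 5 vessel, 4 tested red blood cell and 4 melanocyte markers passed after adjustment, and Tyrp1 of melanocytes was not above background. One of the 6 hair cell markers, Otof, needed for transmitter release from inner hair cells, fell by 0.40 (adjusted p = 0.010), while the summed level of these markers was 14.31 to 14.48 in the mutant pools and 14.44 to 14.64 in the controls. At an unadjusted p, 2 of the 6 hair cell markers were lower, Otof and Gfi1, against 3.90% of all genes, and Gfi1 was at -0.24 (adjusted p = 0.0641) with lower values on all 4 arrays. Of the 6 supporting cell markers none passed after adjustment and 2 were higher at an unadjusted p, Prox1 at 0.17 (adjusted p = 0.234) and S100a1 at 0.11 (adjusted p = 0.667), with summed levels of 16.16 to 16.26 and 16.10 to 16.23. The paper uses S100A1 as a marker of inner hair cells too, so S100a1 does not read supporting cells alone. The part of cell composition in the values of Gdf6, Id4 and Ctgf was not tested.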

How the data were processed

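RNA of 4 mutant and 4 control pools, each a separate pool of one sex per the methods, was hybridised to 4 two-colour Agilent arrays. The authors deposited scanner output of Agilent Feature Extraction 10.7.3.1 (per the labels) with the linear intensity of each spot in both channels and the log10 ratio of red over green. The deposited series matrix holds signed fold changes of mutant over control, whose log2 values correlated at 0.94 to 0.95 with the ratios computed here (column medians 0). Its normalization is not given in the sources used here.

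Mean signals were background-corrected (normexp, offset 50), loess-normalized within arrays, and Aquantile-scaled for pool levels, in limma 3.58.1, statmod 1.5.0 and R 4.3.3. Control spots and flagged outliers were left out, and 4 spots per probe averaged at most. Probes well above background in more than 0.5 of the spots on at least 3 arrays of one genotype were tested (28104 of 39429). Log2 ratios were fitted with a dye term and Benjamini-Hochberg adjustment over all tested probes, and the brightest tested probe stands for a gene. Levels by sex were fitted over 8 channels with an intraspot correlation of 0.27. The fit of log2 ratios, with and without a term for sex, was run on simulated ratios with set changes. The outcome is not given here, and the fit of levels was not simulated. The alternatives were those of the closing section. Depth has no counterpart on arrays; their number limits the precision.

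The members, lists and tests were chosen with earlier results of these data known. Values are given for members with an adjusted p under 0.05, the 6 higher and 6 lower with the smallest p, Id1 to Id4, Smad6, Smad7, Bambi and Bmp4, and the 3 with the smallest p for each sex comparison. Of the other lists, those with an adjusted p under 0.05 and the 2 with the smallest p are named. Dye terms, Bmpr2's spread, Acvr1c, Gfi1, Prox1, S100a1 and the members of role classes were described after their values were seen. Array positions are mm9, and array gene names were matched to RefSeq, with 28328 probes named. Promoters came from RefSeq (GRCm38.p6), which matched 35 of the 49 members.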

Additional observations from a re-analysis of the deposited data

Results flagged for a closer look

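In 2 of the 47 tested members, 1 array stood apart from the other 3 by more than the range test for 4 values allows, and chance flags about 1 in 20 groups. The log2 ratio of Bmp3 was -0.25 on array 4, against 0.02 to 0.04 on the other arrays. The log2 ratio of Acvr1b was -0.18 on array 1, against 0.07 to 0.12 on the others. Neither gene passed the test for genotype.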

How the results depend on the processing

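The count of members with a change of 1.5-fold or more stayed at 0 in all 17 alternatives, which included SAM on unpaired pools, and the median log2 ratio stayed between -0.02 and 0.03 in 16. The 2 members past an adjusted p of 0.05 became 1 with a normexp offset of 16, median centring, the scanner's LogRatio, sex as a further term, unpaired levels or no filter on dim probes, and 0 in the series matrix or without a dye term; leaving out 1 array gave 1 to 2. Gdf6 lost its call in 2 of 16 alternatives and Id4 in 11 of 16, and neither changed direction. Members higher at an unadjusted p numbered 4 with median centring and 1 with unpaired levels, in place of 2, and 1 to 4 with 1 array left out. The other pathway genes past the threshold were 0 without a dye term and 1 with unpaired levels, in place of 2, and 1 to 4 with 1 array left out (4 without array 4). Members whose level differed by sex at an unadjusted p were 5 without a dye term, in place of 2, and 1 to 9 with 1 array left out (9 without array 2, 1 without array 4), with the intraspot correlation of all 4 arrays. The causes were not tested. The main fit pairs the genotypes within each array, and the fit of unpaired levels is the one without that pairing. Changes smaller than the intervals, which reach 0.11 to 0.20 log2 units to either side, could not be resolved with 4 arrays, and Grem1 and Bambi had no signal well above background.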
